A study of Mus musculus with 6 samples.

Results

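The miR-3473 family was described in small RNA sequencing of exosomes, the small vesicles that cells release into their medium. Its members were chosen by name, as every mouse miRNA in the deposited count table that starts with mmu-miR-3473, with 1 entry kept per name. This gave 7 of 598 names: miR-3473a, b, d, e, f, g and h-5p. The family was picked because mmu-miR-3473b and mmu-miR-3473e were higher in M2-exo than in M0-exo, so the difference between the groups is given for the members as a description, and their counts under the call rule stand beside those of all names without supporting anything. The exosomes came from RAW264.7 cells, an established mouse macrophage line, labelled wild type. M0-exo (n = 3) came from untreated cells, and M2-exo (n = 3) came from cells kept for 24 h with IL-4 and IL-13, each at 20 ng/mL, the cytokines that drive alternative (M2) activation. In both groups the medium was then replaced by serum-free medium, from which the vesicles were collected by ultracentrifugation. All 6 libraries carried the same batch label, and nothing stated whether replicates were separate cultures. Every SD given here is therefore the spread between these libraries and may be technical. The standard errors (SE) of fold changes come from a fit across all names and do not measure the spread of a single name.

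A miRNA is cut from a hairpin precursor and pairs with target mRNAs mainly through its seed, bases 2 to 8 of the mature strand. SINE elements are short retrotransposons that are copied into many places of the genome. The mouse B2 SINE descends from a tRNA gene, is transcribed by RNA polymerase III and occurs in introns and 3′ untranslated regions, and its first bases resemble the sequence that several miR-3473 names share. A small RNA with such a sequence can therefore match many transcripts as well as its own hairpin.

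The mature sequences of all 7 members were found in RefSeq (GRCm38.p6). They are shown together because the seeds split the family, and capitals mark the seed. The first 2 lines hold the pair with a common seed.
miR-3473b: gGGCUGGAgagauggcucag
miR-3473e: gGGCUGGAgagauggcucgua
miR-3473a: uGGAGAGAuggcucagca
miR-3473d: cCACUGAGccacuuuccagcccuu
miR-3473f: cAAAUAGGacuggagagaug
miR-3473g: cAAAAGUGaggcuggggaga
miR-3473h-5p: uAGGGGCUggaaaggugacu
Only miR-3473b and miR-3473e had a seed in common with another member, and each of the other 5 had its own. Among the names outside the family, miR-185-5p had the seed of miR-3473a and miR-674-5p that of miR-3473d. The lengths ran from 18 bases for miR-3473a to 24 bases for miR-3473d, and GC content from 45.0% for miR-3473f to 65.0% for miR-3473b.

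The longest run that each member shares with miR-3473b is shown next, since this overlap decides how far the counts of 2 names can come from the same fragments. Capitals mark the shared run.
miR-3473b: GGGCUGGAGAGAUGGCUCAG
miR-3473e: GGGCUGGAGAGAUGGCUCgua
miR-3473a: UGGAGAGAUGGCUCAGca
miR-3473f: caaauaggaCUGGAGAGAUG
miR-3473h-5p: uagGGGCUGGAaaggugacu
miR-3473g: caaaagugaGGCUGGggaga
miR-3473d: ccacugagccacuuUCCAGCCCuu
miR-3473e had the first 18 bases of miR-3473b and ended in 3 other bases where miR-3473b ended in 2. miR-3473a had 16 bases, beginning at base 5 of miR-3473b, and so lacked the common seed. The run was 11 bases for miR-3473f, 8 for miR-3473h-5p and 6 for miR-3473g. The run of miR-3473d was 8 bases as the reverse complement, and miR-3473d shared 11 bases with miR-3473h-5p in the same reversed way. How the counting tool treated reads that could belong to several of these names was not given in the sources used here.

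**Figure D1:**
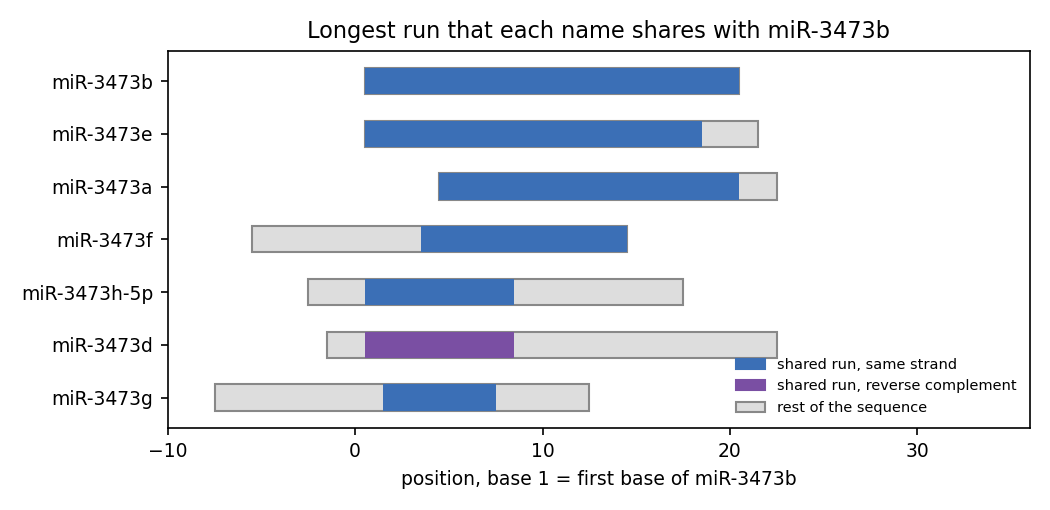
Each bar is a mature miR-3473 sequence, placed along the x axis by base position relative to miR-3473b (base 1 is its first base), with the longest shared run in blue (same strand) or purple (reverse complement) and the rest in grey. The bars of miR-3473e and miR-3473a are blue over 18 and 16 bases, whereas miR-3473g shares 6.

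In RefSeq's GRCm38.p6 assembly the members lay on 7 chromosomes, each in an intron by the GENCODE M21 annotation. Mature miR-3473b lies on chromosome 10 from 41670774 to 41670793 on the plus strand, in an intron of Ccdc162 but on the opposite strand. Mature miR-3473e lies on chromosome 5 from 31667296 to 31667316 on the minus strand, in an intron of the ribokinase gene Rbks on the same strand, and opposite an intron of Gm43809. miR-3473a lies on chromosome X from 162874920 to 162874937 on the minus strand, in an intron of Syap1. The 4 other members lie in introns of Ddx19b (miR-3473d, chromosome 8, 111016498 to 111016521), Bcl2 (miR-3473f, chromosome 1, 106546536 to 106546555), Sppl2a (miR-3473g, chromosome 2, 126902290 to 126902309) and Gm43191 (miR-3473h-5p, chromosome 3, 116667598 to 116667617). These 4 are on the minus strand, the same strand as those genes, and an antisense gene, D630008O14Rik, also spans miR-3473f. The deposited table gave no coordinates of its own.

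The inverted repeats within the hairpins differed in length. The RefSeq precursors of miR-3473b, miR-3473e and miR-3473f are shown for this, with the mature strand in capitals.
miR-3473b hairpin: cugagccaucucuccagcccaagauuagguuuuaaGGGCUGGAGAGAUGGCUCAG
miR-3473e hairpin: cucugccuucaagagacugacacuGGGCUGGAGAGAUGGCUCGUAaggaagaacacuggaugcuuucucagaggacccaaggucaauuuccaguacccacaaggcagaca
miR-3473f hairpin: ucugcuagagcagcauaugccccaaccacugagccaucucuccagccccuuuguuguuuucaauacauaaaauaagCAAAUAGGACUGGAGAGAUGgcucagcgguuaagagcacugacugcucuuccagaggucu
The miR-3473b precursor, 55 bases on chromosome 10 from 41670739 to 41670793, begins with the exact reverse complement of its mature strand, 20 bases long. In the 110-base precursor of miR-3473e (chromosome 5, 31667231 to 31667340) the longest exact inverted repeat was 8 bases, and it did not reach the mature strand at bases 25 to 45. The 136-base precursor of miR-3473f held an inverted repeat of 17 bases. Those of the other 4 members held 12 bases (miR-3473d), 11 (miR-3473a), 7 (miR-3473h-5p) and 6 (miR-3473g).

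The repeat character of the sequences was counted over the transcripts of 55450 annotated genes in GENCODE M21. The whole miR-3473b sequence occurred in transcripts of 360 genes on the same strand (0.649%) and, as its reverse complement, in 393 genes. In 115 of the 360 genes the match was in a 3′ untranslated region, in 4 in coding sequence and in 3 in a 5′ untranslated region. miR-3473a occurred in 148 genes on the same strand, 50 of them in the 3′ untranslated region, and in 136 as the reverse complement. miR-3473d, e, f and g each occurred in 1 gene, its own hairpin gene, and miR-3473h-5p in 0. By this measure the name repeat-related held for the full sequences of miR-3473a and miR-3473b, and not for those of the other 5 members. Exact matches miss copies that differ, so this measure cannot decide whether these 5 derive from a repeat.

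For miR-3473e the name held, by the same measure, for the shared bases. The 18 bases that open both miR-3473b and miR-3473e occurred in 419 genes, and in 360 of these the next bases were AG, as in miR-3473b. The next most frequent endings were AA in 13 genes, GG in 12 and UG in 10. GU, the ending of miR-3473e, followed in 1 gene, Mir3473e itself. The 16 bases shared by miR-3473a and miR-3473b were wider still, in 609 genes on the same strand. A fragment that ends within the 18 bases cannot be told apart between miR-3473b, miR-3473e and many other transcripts. The 2 or 3 last bases carry all of the distinction between miR-3473b and miR-3473e. They do not separate miR-3473b from the other transcripts in which AG follows. A match to a transcript was read only as a match of letters, not as a site of action.

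**Figure D2:**
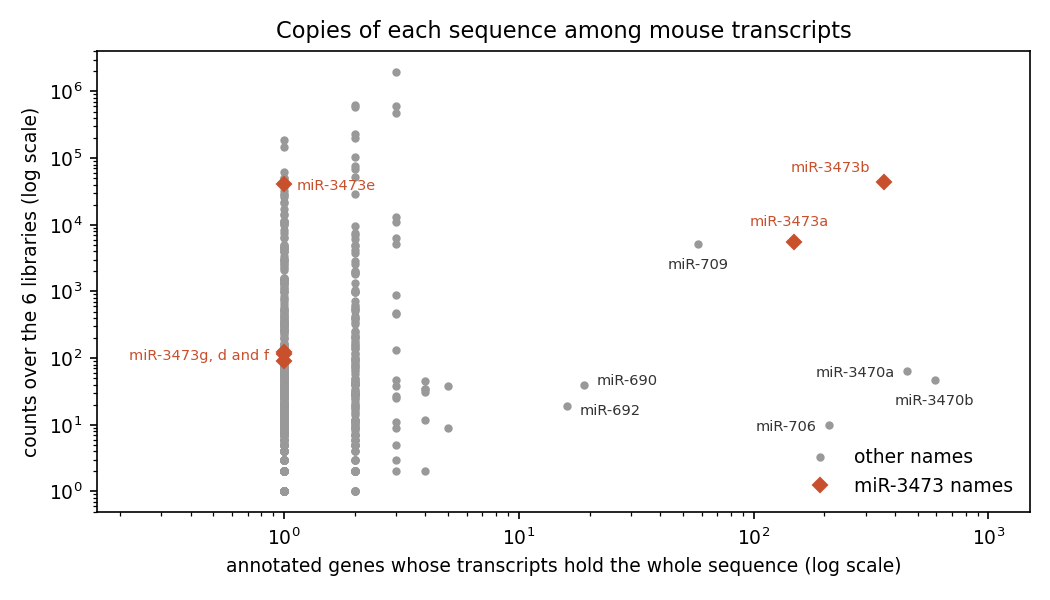
Each point is 1 of the 598 miRNA names, with the number of annotated mouse genes whose transcripts hold its whole sequence on the x axis and its counts summed over the 6 libraries on the y axis (both log scales, so names found in 0 genes are not drawn). miR-3473b at 360 genes and miR-3473a at 148 genes stand to the right at high counts, and miR-3473e has almost the count of miR-3473b at 1 gene.

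Library totals over the 598 names ran from 860204 to 1453348 counts, of which let-7 names took 74.4% to 77.3%. A level of 3 counts, the limit that a count of 0 allows, was worth 2.06 to 3.49 counts per 1000000 (CPM), for counting error only. Counts of replicates of 1 group differed by more than sampling noise, with a chi-square per degree of freedom of 5.22 to 24.1 over the pairs. Levels below are CPM scaled by TMM, a normalisation that sets the bulk of miRNAs equal between libraries, and fold changes are log2 values of M2-exo over M0-exo from an edgeR quasi-likelihood fit across all 598 names. All 6 myeloid markers checked were in the table, with a summed level of 1353 to 1839 CPM in M0-exo and 1274 to 1559 CPM in M2-exo. The sum hid differences in both directions, among them miR-155-5p (log2 fold change -1.04, SE 0.15) and miR-21a-5p (0.55, SE 0.18). Red cell and serum miRNAs, of which 4 of 5 were in the table with miR-144-3p the exception, summed to 147 to 268 CPM in M0-exo and to 266 to 2712 CPM in M2-exo, and M2-exo replicate 3 was the highest. Only miR-122-5p separated the groups. Its M2-exo libraries held 160, 128 and 2497 CPM, whereas its M0-exo libraries held 40.3, 47.1 and 54.8. miR-486a-5p and miR-486b-5p had identical counts in every library, so the same counts entered the sum under both names. Their levels overlapped between the groups, as did those of the scarce miR-451a. The part of red cell and serum miRNAs in the results was not tested. The values of miR-3473b and miR-3473e without M2-exo replicate 3 are given below.

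miR-3473b and miR-3473e made up nearly all of the family in both groups, and both were higher in M2-exo. miR-3473b had 6977, 6933 and 5345 counts in M0-exo replicates 1 to 3 and 7996, 8256 and 7933 in M2-exo replicates 1 to 3. In scaled CPM these were 4467, 5537 and 5747 against 9360, 9896 and 9071. The 2 groups did not overlap, and the lowest M2-exo library was well above the highest M0-exo library. The mean was 5250 ± 686 CPM in M0-exo against 9443 ± 419 CPM in M2-exo (SD, n = 3), a ratio of 1.80 and a log2 fold change of 0.85 (SE 0.09).

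miR-3473e followed the same course at a slightly lower level. Its counts were 6416, 6364 and 4881 in M0-exo against 7801, 8019 and 7704 across M2-exo. These were 4108, 5082 and 5248 CPM against 9132, 9612 and 8809 CPM. Again the groups did not overlap, with M0-exo replicate 1 the lowest library for both names. The mean moved from 4813 ± 616 to 9184 ± 404 CPM (SD, n = 3), a ratio of 1.91 and a log2 fold change of 0.93 (SE 0.09). Without M2-exo replicate 3 the log2 fold changes were 0.88 for miR-3473b and 0.96 for miR-3473e. Leaving out that library did not remove the difference in miR-122-5p, which was also higher in M2-exo replicates 1 and 2 than in M0-exo. These values therefore do not bear on the part of serum miRNAs, which was not tested.

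miR-3473a, which shares 16 bases with miR-3473b but not its seed, went the other way in its mean. It had 1271, 1309 and 873 counts across M0-exo against 608, 670 and 747 counts across M2-exo. Scaled, these were 814, 1045 and 939 CPM against 712, 803 and 854 CPM. The groups overlapped, since M2-exo replicate 3 lay above M0-exo replicate 1. The log2 fold change was -0.24 (SE 0.13), from a mean of 933 ± 116 to 790 ± 72.2 CPM (SD, n = 3).

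The 4 scarce members were close to the limit of detection, with 38 to 123 counts each over all 6 libraries. miR-3473g had 48, 46 and 8 counts across M0-exo against 3, 9 and 9 across M2-exo. Its M2-exo counts lay at or near that of M0-exo replicate 3, and the scaled levels of the groups overlapped (25.4 ± 14.8 against 8.20 ± 4.07 CPM, log2 fold change -1.62, SE 0.81). miR-3473d had 53, 21 and 11 counts across M0-exo against 5, 15 and 12 across M2-exo, with a log2 fold change of -0.74 (SE 0.79). miR-3473f had 18, 26 and 8 counts against 16, 9 and 12, with a log2 fold change of 0.08 (SE 0.88). This direction changed with the scaling, to -0.15 without scaling beyond the library total and to -0.04 with a GC offset. miR-3473h-5p had 18, 11 and 0 counts against 0, 2 and 7, with a log2 fold change of -0.95 (SE 1.72). For miR-3473d, f and h-5p a difference was not detectable at this depth, and each standard error was larger than the fold change.

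**Figure D3:**
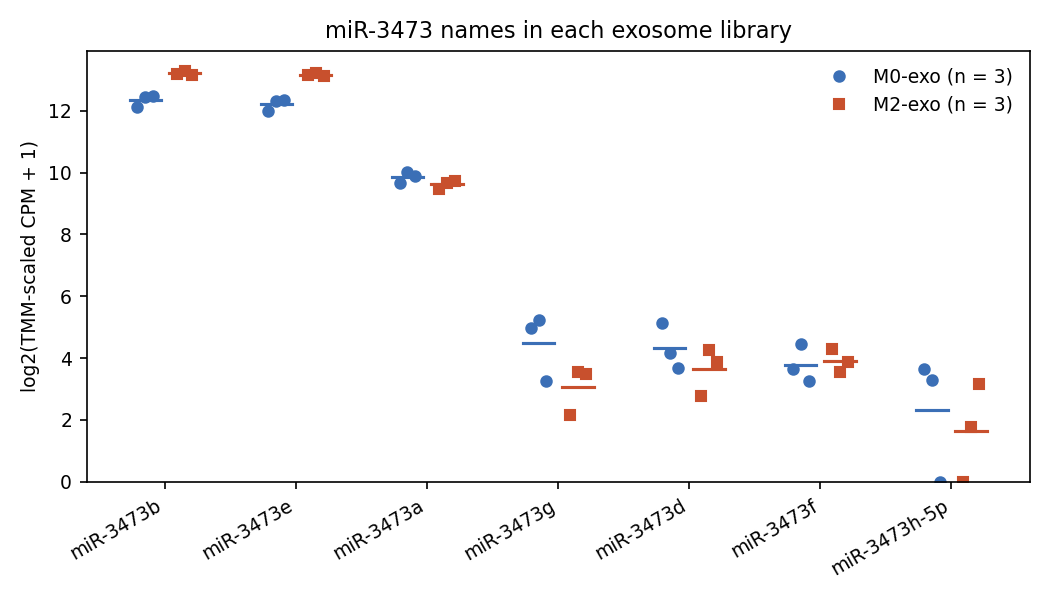
Each point is the level of a miR-3473 name in 1 library, as log2(TMM-scaled CPM + 1), with M0-exo as blue circles, M2-exo as red squares (n = 3 each) and a line at the group mean. The red squares lie above all blue circles for miR-3473b and miR-3473e, and the groups overlap for the other 5 names.

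A name was called where its absolute log2 fold change was at least 0.5 with an unadjusted p below 0.05. Of the 7 members, 2 were called higher (miR-3473b and miR-3473e), 1 lower (miR-3473g) and 4 not at all. Over all 598 names 60 were called (10%), 22 of them higher (3.68%) and 38 lower (6.35%). At any fold change, called or not, 53 of 598 names (8.86%) had an adjusted p below 0.05 by edgeR's quasi-likelihood test. All M2-exo libraries were above all M0-exo libraries for 2 of 7 members and for 57 of 598 names (9.53%), and all were below for 0 of 7 members and 57 of 598 names (9.53%). Because the same contrast chose the family, nothing is read from these shares. The call of miR-3473g was lost under 8 of 14 alternative settings, among them DESeq2, the filter on low counts and the removal of either of M0-exo replicates 1 and 2 or of M2-exo replicates 1 and 3.

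Fold changes depended on the scaling. Without scaling beyond the library total the median of all names was -0.18 in place of 0.03, and 10 names were called higher and 63 lower. Under that setting miR-3473b was at 0.63 and miR-3473e at 0.72, above the median in both cases, and miR-3473a at -0.46, below it. As a share of the counts over the 598 names, with 1 entry per name and no such scaling, the family took 1.02%, 1.27% and 1.29% in M0-exo. In M2-exo it took 1.75%, 1.97% and 1.69%. Its mean share was 1.19 ± 0.152% against 1.81 ± 0.148% (SD, n = 3), and these ranges did not overlap. Among the counts outside let-7, which dominated each library, it was 4.83 ± 0.447% against 7.76 ± 0.346%. In rank by mean level among the 598 names, miR-3473b went from 18 in M0-exo to 13 in M2-exo, miR-3473e from 20 to 14 and miR-3473a from 46 to 51.

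**Figure D4:**
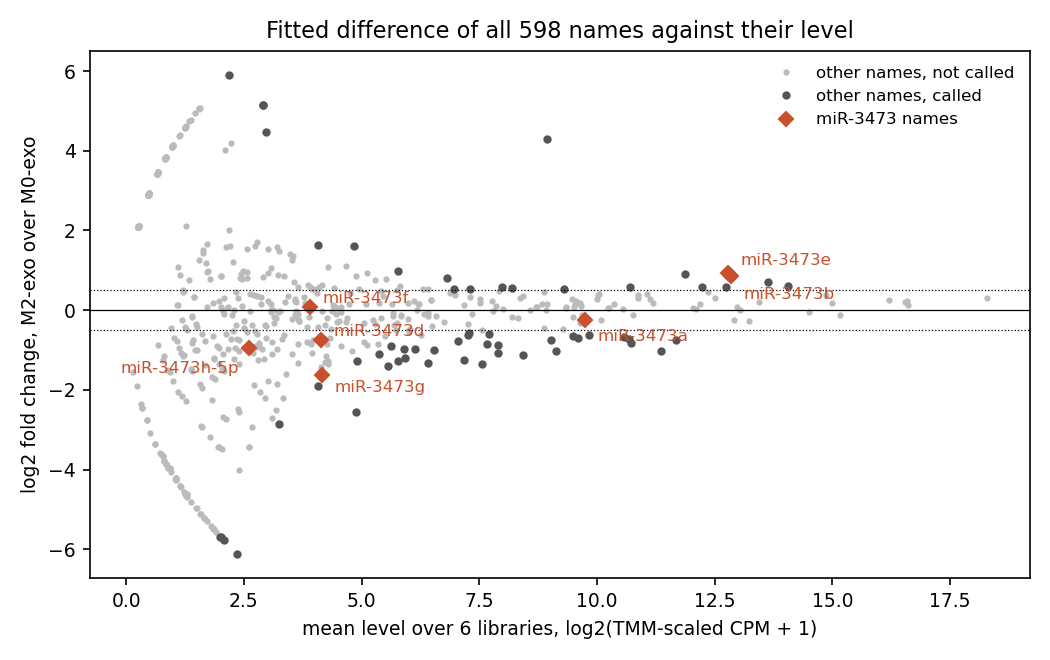
Each of the 598 names is a point with its mean level over the 6 libraries on the x axis, as log2(TMM-scaled CPM + 1), and its fitted log2 fold change of M2-exo over M0-exo on the y axis. Diamonds are miR-3473 names, dark points are other called names and dotted lines mark log2 fold changes of 0.5 and -0.5. miR-3473b (0.85) and miR-3473e (0.93) lie close together at a high level, while miR-3473a (-0.24) is between the dotted lines.

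The relation between miR-3473b and miR-3473e was nearly fixed within a group and differed between the groups. The ratio of their counts was 1.087, 1.089 and 1.095 in M0-exo against 1.025, 1.030 and 1.030 in M2-exo. The mean ratio was 1.09 ± 0.00396 in M0-exo and 1.03 ± 0.00268 in M2-exo (SD, n = 3), without overlap. Ratios of counts within a library do not depend on its depth or scaling. The count of miR-3473b beyond that of miR-3473e was 561, 569 and 464 in M0-exo against 195, 237 and 229 across M2-exo. Scaled, that excess was 437 ± 71.4 CPM in M0-exo against 258 ± 28.1 CPM in M2-exo, so it was smaller in the group in which both names were higher. It equalled 9.06 ± 0.396% of the miR-3473e count in M0-exo and 2.81 ± 0.268% in M2-exo.

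miR-3473a also changed its place beside this pair. For each 100 counts of miR-3473e there were 19.8, 20.6 and 17.9 counts of miR-3473a in M0-exo against 7.79, 8.36 and 9.70 in M2-exo, without overlap. The mean was 19.4 ± 1.38 against 8.62 ± 0.977 (SD, n = 3). miR-3473b and miR-3473e together were 90.5%, 90.4% and 91.9% of the family's counts in M0-exo against 96.2%, 95.8% and 95.2% in M2-exo. As the family was chosen on the levels that enter these ratios, they were not tested.

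**Figure D5:**
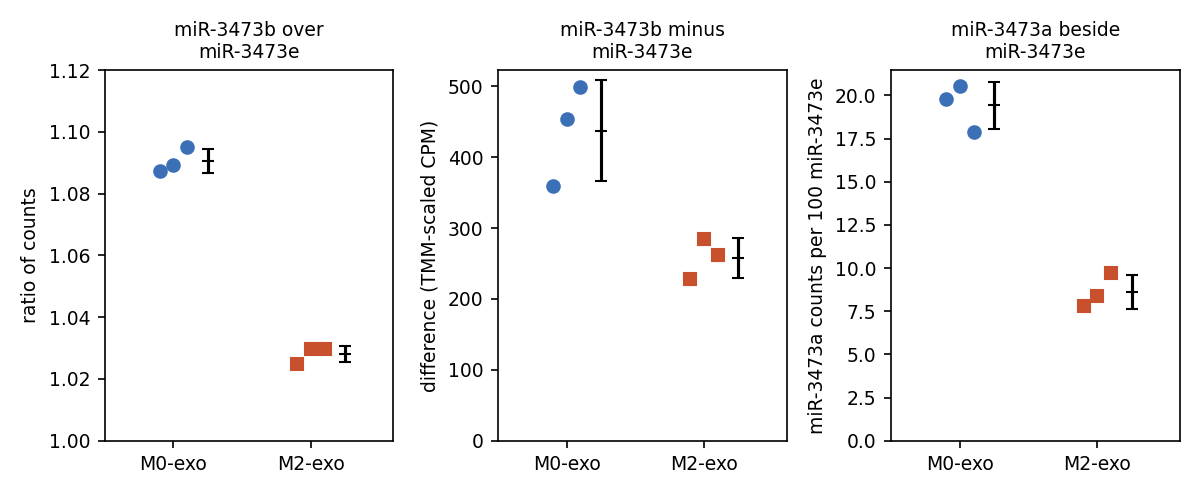
The panels give for each library, from left to right, the ratio of miR-3473b to miR-3473e counts (the axis starts at 1.00), the scaled CPM of miR-3473b minus that of miR-3473e, and the counts of miR-3473a per 100 counts of miR-3473e. Black marks are the mean and SD of 3 libraries, and in each panel all M2-exo squares lie below all M0-exo circles.

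The closeness of miR-3473b and miR-3473e was set beside other names with similar sequences, a comparison chosen after values had been seen. Over all names, 26 pairs of names with different sequences shared a run of at least 16 bases. In 6 pairs the counts were within 15% of each other in every library. Of these, 4 pairs had identical counts in every library, and all were scarce: miR-299a-5p with miR-299b-5p (9 counts each in all), miR-374b-5p with miR-374c-5p (73), miR-1843a-5p with miR-1843b-5p (38) and miR-101a-3p with miR-101c (2). The other close pairs were let-7b-5p with let-7a-5p, whose ratio ran from 0.932 to 1.14, and miR-3473b with miR-3473e. Among the 13 pairs in which each name had at least 100 counts, these were the only 2 within 15%. The ratio of miR-3473b to miR-3473a, by comparison, ran from 5.30 to 13.2. How many reads miR-3473b and miR-3473e had in common was not tested, since the table holds counts only, so 1 measurement under 2 names cannot be told apart from 2 measurements.

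Names outside the family that share at least 10 bases with miR-3473b or miR-3473e were too scarce to compare. There were 2, shown with the shared run in capitals.
miR-7667-5p: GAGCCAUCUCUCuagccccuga
miR-6997-5p: uaacaGGCUGGAGAGgugcaga
miR-7667-5p, whose run is the reverse complement, had 2 counts in M2-exo replicate 3 and 0 elsewhere. miR-6997-5p had 12, 0 and 7 counts across M0-exo against 0 in each M2-exo library. By edgeR 0 of the 2 were called, with 0 at an unadjusted p below 0.05 by edgeR or DESeq2. With the shared run lowered to 8 bases there were 13 names, of which 0 were called higher and 2 lower. Over all 598 names 3.68% were called higher and 6.35% lower, so nothing is read from these counts. The median log2 fold change of the 13 was -0.69 against 0.03 over all names. The 13 include the 2 scarce names above, and fitted values of names at 0 in a group depend on the prior count. The 2 called lower, named here after their values were seen, were miR-671-5p and miR-877-5p. miR-671-5p moved from 949 ± 165 to 587 ± 70.4 CPM (log2 fold change -0.69, SE 0.13). miR-877-5p moved from 3542 ± 426 to 1749 ± 152 CPM (log2 fold change -1.02, SE 0.11). Others among the 13 were fitted higher in M2-exo without passing the call, also named after their values were seen. miR-24-3p was at 0.41 (SE 0.11), with no overlap between the groups, and miR-5128 at 0.28 (SE 0.21), with overlap. The names outside the family that share a seed with a member did not pass the call. miR-185-5p, also among the 13, was at 743 ± 34.7 and 848 ± 73.7 CPM (log2 fold change 0.19), and the log2 fold change of miR-674-5p was -0.05.

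The other names with many copies among transcripts were mostly scarce and did not pass the call. Among all names, 8 of 598 occurred in transcripts of at least 10 genes, and the other 590 in at most 5. miR-3473b was the third of these 8 and miR-3473a the fifth. The 6 others, named after their values were seen, were miR-3470b (591 genes), miR-3470a (450), miR-706 (209), miR-709 (58), miR-690 (19) and miR-692 (16). Of these, 0 were called, and 0 had an unadjusted p below 0.05 by edgeR or by DESeq2. Over all 598 names 60 were called (10%), so nothing is read from a count of 0 among 6 names. miR-709 was the only abundant one, with 1145, 1168 and 822 counts across M0-exo against 703, 634 and 672 across M2-exo (log2 fold change -0.12, SE 0.13). miR-3470a had 17, 3 and 4 counts against 16, 9 and 15 (log2 fold change 1.37, SE 1.09), and miR-3470b had 6, 0 and 9 against 20, 8 and 4 (log2 fold change 1.48, SE 1.28). The remaining 3 had at most 19 counts in any library, too few to show a difference at this depth.

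Most other miRNAs with late numbers were not called, as was so for all names. Of 285 names with a number of at least 1000 outside the family, 2 were called higher, 13 lower and 270 not. Over all 598 names these counts were 22, 38 and 538. The median log2 fold change of the 285 was -0.31 against 0.03 over all names. Many of the 285 were scarce, and the fitted values of names at 0 in a group depend on the prior count. The 2 called higher were miR-2137 and miR-6240. miR-6240, listed here with the entries reported to overlap ribosomal RNA, had 7453, 7350 and 5315 counts across M0-exo against 7124, 7089 and 6688 across M2-exo, or 5452 ± 594 against 8161 ± 452 scaled CPM (log2 fold change 0.58, SE 0.09). The other such entry in the table, miR-6236, was called lower, with 26, 106 and 41 counts against 11, 1 and 9 (log2 fold change -2.55, SE 0.61).

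The names whose course over the 6 libraries was most like that of miR-3473b and miR-3473e were found among the 105 names outside the family with at least 100 CPM. Likeness was the root-mean-square difference in log2(CPM + 1), each name centred on its own mean, from the mean of miR-3473b and miR-3473e. miR-2137 was nearest at 0.0593, where miR-3473b and miR-3473e were each 0.0214 from their own mean and the median of the 105 was 0.432. It had 3427, 3600 and 2540 counts across M0-exo against 4268, 4387 and 3834 across M2-exo, a mean of 2600 ± 359 against 4880 ± 449 CPM (log2 fold change 0.91, SE 0.10). miR-2137 has a GC content of 85.7%. Next came miR-6240 (0.160), miR-712-3p (0.186), miR-16-5p (0.225) and miR-7a-5p (0.226). miR-712 is known to be cut from the spacer of the ribosomal RNA precursor, and miR-712-3p was at 116, 91 and 89 counts against 132, 101 and 128 (log2 fold change 0.80, SE 0.26). The abundant miR-16-5p and miR-7a-5p had log2 fold changes of 0.60 (SE 0.08) and 0.71 (SE 0.08). These values follow from the choice by likeness and are not a test. miR-3473a, at 0.577, would have ranked 75 among the 105.

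Base composition moved with the groups. Of 68 names with a GC content of at least 60% and a mean of at least 10 counts, which include miR-3473b and miR-3473e, 6 were called higher and 17 lower, with a median log2 fold change of -0.40. Of 173 names below 60% GC, 12 were called higher and 17 lower, with a median of 0.08. The 6 GC-rich names called higher were miR-3473b, miR-3473e, miR-2137, miR-6240, miR-712-3p and miR-339-3p. With an offset for GC content the log2 fold changes of miR-3473b and miR-3473e were 1.21 and 1.22. The part of base composition in the result was not tested.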

How the data were processed

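Small RNA from 3 M0-exo and 3 M2-exo samples was sequenced, and samples were grouped by their labels. The authors deposited a single table that pairs raw read counts for each mature miRNA and hairpin with RPM values. Each RPM value was found to be the count over the library total of all 638 entries, scaled, to within 0.005. The submitters' processing notes name the mouse build mm39. The aligner, counting tool and miRNA release were not given in the sources used here. The members and lists were chosen with earlier results of these data known.

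Of the 598 names, 35 had several entries and were represented by the largest, and each miR-3473 name had 1. Counts were fitted with edgeR 4.0.16 in R 4.3.3 (TMM, trended dispersion, glmQLFit, glmQLFTest, no covariates). A name was called at a log2 fold change of 0.5 or more in either direction with an unadjusted p below 0.05, and names with a Benjamini-Hochberg adjusted p below 0.05 were counted separately, at any fold change. The standard error is the size of the log2 coefficient over the square root of F, and none is given where a group had at most 3 counts in every library. Its dispersion was largely shared across names, so it does not show how far the libraries of 1 name differ. For example, miR-122-5p, at 160, 128 and 2497 CPM in M2-exo, had a standard error of 0.18. That of miR-21a-5p was also 0.18. The fit was tested on simulated data. Figures were drawn with matplotlib 3.10.9.

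Sequences and positions are from RefSeq (GRCm38.p6), and transcripts from GENCODE M21 of the same build. They were searched for exact matches on both strands, which bears on letters only, and genome copies outside transcripts were not analysed here. Named miRNAs were every miR-3473 name, the shared-sequence list, the 2 most abundant of each comparison list and the 5 names most like miR-3473b and miR-3473e. Outside this rule, names that share a seed or at least 8 bases with a member, names with many copies among transcripts and pairs with long shared runs were named after their values were seen. The Sfmbt2 cluster list (miR-297, miR-466, miR-467 and miR-669) and miR-5105, miR-5109 and miR-5115 were not analysed here, with 0 names in the table. Neuron, muscle and epithelium markers were at most 66.3 CPM when summed per list. Alternatives were DESeq2 1.42.0, other scalings, a filter on low counts, a GC offset, a replicate block, every entry as a feature, merging of miR-3473b and miR-3473e and leaving out each library.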

Additional observations from a re-analysis of the deposited data

How the results depend on the processing

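Limits were few libraries, unknown assignment of shared reads and low depth for 4 members. The log2 fold changes of miR-3473b and miR-3473e kept the direction on which the family was chosen, which is no sign of stability, and moved by more than the spread between replicates under 2: to 0.63 and 0.72 without scaling beyond the library total, and to 1.21 and 1.22 with the GC offset. Leaving out 1 library gave 0.74 to 0.92 and 0.83 to 1.00. Merged to 1 feature, the pair was at 0.89, and DESeq2 gave 0.83 and 0.92. The other members kept their sign except miR-3473f, which kept it in 9 of 14, with a range of -0.16 to 0.50. Without M0-exo replicate 1 miR-3473d was at -0.20 and miR-3473h-5p at -0.35, and without M2-exo replicate 3 miR-3473h-5p was at -2.41. The 60 called names became 50 to 74, and 51 to 74 when 1 library was left out. The mean ratio of miR-3473b to miR-3473e was then 1.088 to 1.092 in M0-exo and 1.027 to 1.030 in M2-exo. Calls among names with a shared run rose from 0 to 2 at 8 bases, where the list is longer (13 names in place of 2), and stayed at 0 at 12 bases. Replicate numbers did not pair the libraries (correlations of deviations -0.0415, 0.0173 and -0.0459), and with the number as a replicate block 56 names were called, 53 of them shared with the 60, with miR-3473b at 0.85 and miR-3473e at 0.94.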
